A study of Rattus norvegicus with 18 samples.

Results

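The genes described here are the period genes Per1, Per2 and Per3, the cryptochrome genes Cry1 and Cry2, the nuclear receptor genes Nr1d1 and Nr1d2 (REV-ERB alpha and beta), and Dbp, Tef and Hlf, which encode the proline and acidic amino acid-rich basic leucine zipper (PAR-bZIP) transcription factors. They were chosen by name, and every probe whose transcript accession belonged to one of them was kept. This gave 12 probes for 9 of the 10 genes, out of 45598 probes on the array. Per1, Nr1d2 and Dbp had 2 probes each, and no probe matched Hlf. All 12 probes were well above background on all 18 arrays, so no member was lost to a filter on low signal.

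The animals were 18 male Wistar rats, 5 weeks old at the start and 9 weeks old at tissue collection, with 1 hypothalamus and 1 array per rat. The 6 control rats had neither restraint nor a wheel, and the 6 stress rats underwent 3 weeks of restraint for 1 to 1.5 h on 5 days of each week. The 6 rats with stress and exercise had the same restraint plus free access to a running wheel for 4 weeks, of which 1 week came before the first restraint. All rats were killed under ether by decapitation, and the sources used here do not give the clock time of collection.

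In the mammalian clock, BMAL1 with CLOCK or NPAS2 binds E-box sequences and switches on the period and cryptochrome genes, whose proteins return to the nucleus and inhibit that pair. A further loop runs through Nr1d1 and Nr1d2, whose proteins repress Bmal1 transcription. Dbp, Tef and Hlf are driven by the same pair and pass the rhythm on to other genes through D-box sequences. In the hypothalamus the suprachiasmatic nucleus holds the pacemaker, and transcripts of most of these genes rise and fall over the day there and in other nuclei.

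Promoter sequences are shown for Dbp, Tef and Nr1d1, the members called higher with exercise, and for Per2, the member whose window held the most matches. Each is the 250 bases before the annotated start, read 5′ to 3′ on the strand of the gene, from RefSeq for assembly GRCr8, and capitals mark the motif letters found. The Dbp window lies at chr1:105312006-105312255 on the plus strand, that of Tef at chr7:115206577-115206826 on the plus strand, that of the first Nr1d1 start at chr10:84229455-84229704 on the minus strand and that of Per2 at chr9:99496994-99497243 on the minus strand.
Dbp: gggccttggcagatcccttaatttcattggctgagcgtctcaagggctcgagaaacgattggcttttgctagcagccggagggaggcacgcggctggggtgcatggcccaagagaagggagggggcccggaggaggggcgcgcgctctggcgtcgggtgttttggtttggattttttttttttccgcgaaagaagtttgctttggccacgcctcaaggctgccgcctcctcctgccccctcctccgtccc
Tef: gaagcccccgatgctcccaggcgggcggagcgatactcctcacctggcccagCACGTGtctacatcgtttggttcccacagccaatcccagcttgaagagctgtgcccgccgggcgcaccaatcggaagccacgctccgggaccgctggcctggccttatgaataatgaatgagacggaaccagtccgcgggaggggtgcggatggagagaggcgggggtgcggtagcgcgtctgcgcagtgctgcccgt
Nr1d1 start 1: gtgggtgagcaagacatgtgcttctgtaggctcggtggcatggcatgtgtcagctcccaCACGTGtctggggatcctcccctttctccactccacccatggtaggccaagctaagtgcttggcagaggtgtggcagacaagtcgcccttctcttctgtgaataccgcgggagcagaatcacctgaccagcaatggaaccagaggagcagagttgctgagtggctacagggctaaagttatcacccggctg
Per2: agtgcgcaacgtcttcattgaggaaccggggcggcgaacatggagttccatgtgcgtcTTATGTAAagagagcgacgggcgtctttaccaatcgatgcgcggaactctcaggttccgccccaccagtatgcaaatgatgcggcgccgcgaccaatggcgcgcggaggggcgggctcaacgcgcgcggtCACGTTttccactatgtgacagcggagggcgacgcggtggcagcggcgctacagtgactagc
The letters searched on both strands were the E-box CACGTG, its variant CACGTT, the D-box forms TTATGTAA and TTACGTAA, the core AGGTCA of the element that REV-ERB proteins bind, and the cAMP response element TGACGTCA. None of these motifs overlapped another match in a window that is printed. The Tef window held CACGTG at 193 to 198 bases before the start, and the Nr1d1 window held it at 186 to 191 bases. The Per2 window held CACGTT at 57 to 62 bases and TTATGTAA at 185 to 192 bases before the start, and the Dbp window held none of the letters searched. Windows were given for 8 of the 10 genes, not for Cry1 or Hlf (9 windows, with 2 for Nr1d1), and those of Per1 and Per3 held no match. A second Nr1d1 start and Cry2 held CACGTT on the other strand, and Nr1d2 held AGGTCA. Of 33469 windows of this length in the rat annotation, 5.59% held CACGTG, 4.07% CACGTT, 0.828% TTATGTAA, 0.108% TTACGTAA, 14.1% AGGTCA and 1.59% TGACGTCA.

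Levels below are log2 intensities of a probe relative to the 75th percentile of its array, so 0 is that percentile and levels of different probes are not comparable. Differences are between group means on the same log2 scale, and the standard error (SE) is that of the moderated limma fit to all 18 arrays. A probe was called when its p, adjusted by Benjamini-Hochberg over the 31299 probes tested, was under 0.05. The 75th percentile of intensity lay between 423 and 528 over the arrays, and 63.6% to 77.8% of probes were well above background. The arrays lay on 5 slides: slides 1 and 2 held the controls, slide 3 held stress arrays 1 to 4, slide 4 held stress arrays 5 and 6 with exercise arrays 1 and 2, and slide 5 held the other exercise arrays. Of the 3 groups only stress lay in both slide sets, slides 1 to 3 (10 arrays) and slides 4 and 5 (8 arrays). Markers of hypothalamic neurons were present, with 11 of 12 tested and a list mean of 3.02 in control, 3.12 in stress and 3.04 with exercise. In tissue, fewer cells of a type and less RNA per cell cannot be told apart.

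**Figure D1:**
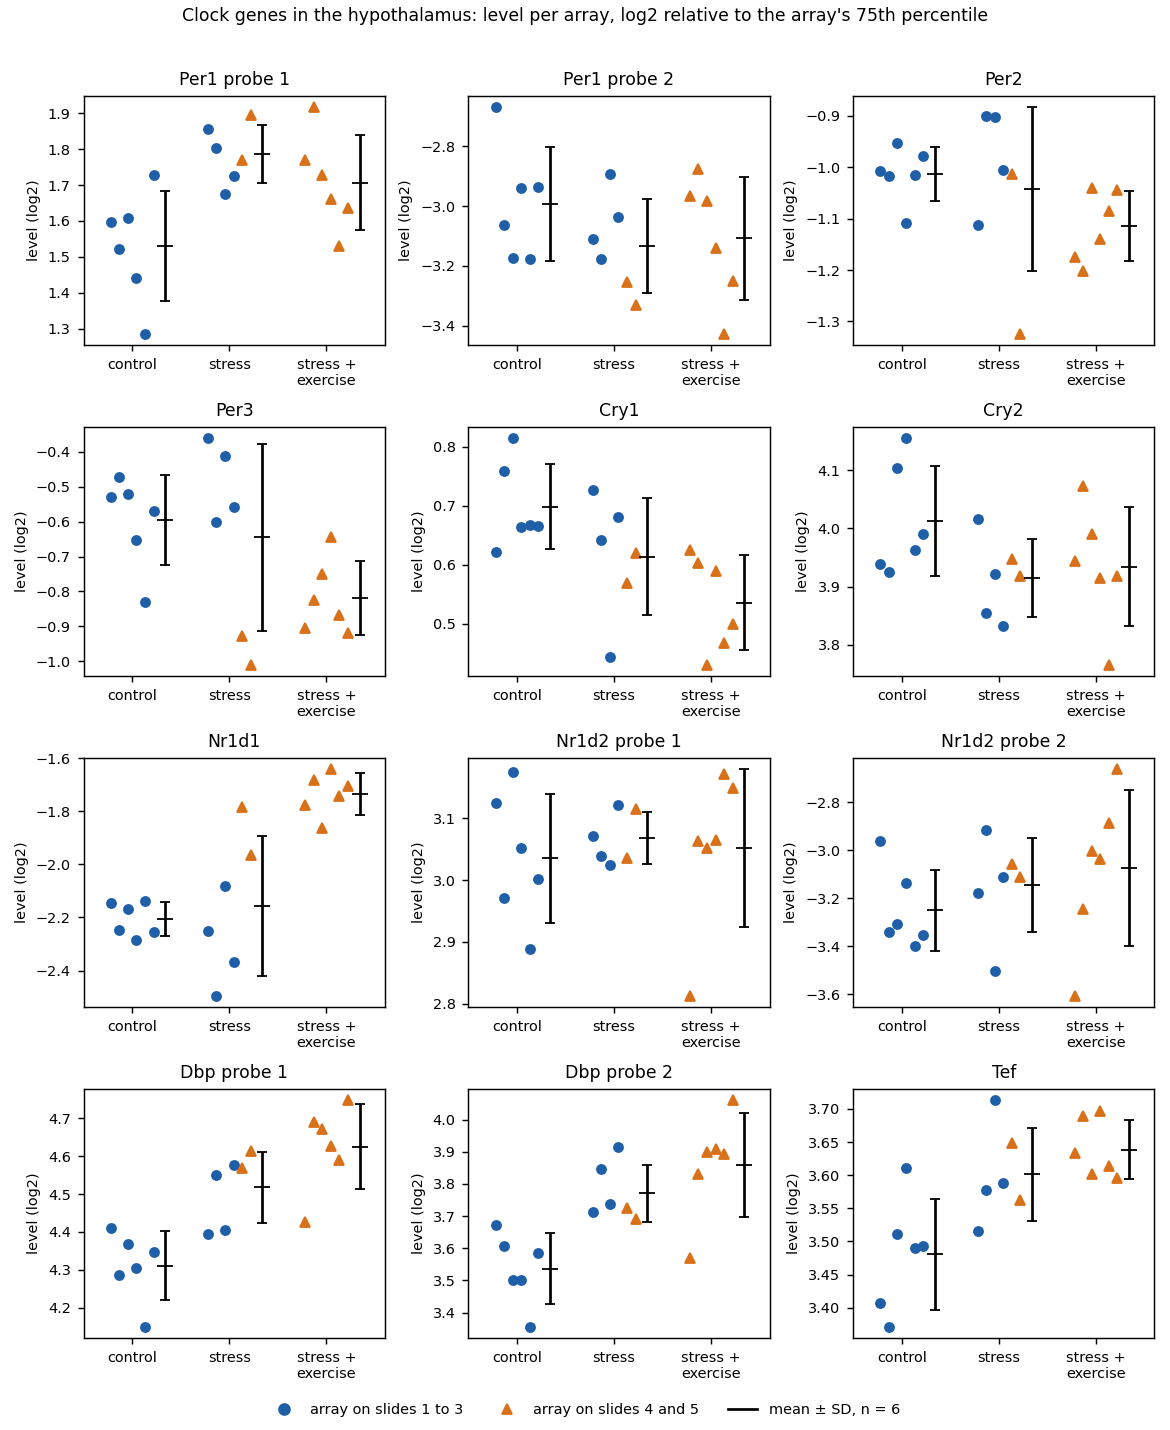
Level of each of the 12 probes on each array (y axis, log2 relative to the array's 75th percentile, with its own scale in each panel) by group, with circles for slides 1 to 3 and triangles for slides 4 and 5, and bars for the mean ± SD of 6 rats. Both Dbp probes stood higher in the stress rats of either slide set than the control mean, while Nr1d1 and Per3 divided the stress rats by slide.

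Dbp, a PAR-bZIP factor with a large daily swing in many rodent tissues, had 2 probes, and both were higher with stress and exercise than in control. On probe 1 (A_64_P017188), which is printed on 10 spots of each array, the 6 control rats ranged from 4.15 to 4.41 with a median of 4.33, the stress rats from 4.40 to 4.61 with a median of 4.56, and the rats with exercise from 4.43 to 4.75 with a median of 4.65. Every exercised rat lay above every control rat, and the stress rats overlapped the top of the control range. The 10 spots of an array had an SD between 0.030 and 0.075 (median 0.054), below the SD of 0.090 to 0.112 between rats of a group. Probe 2 (A_44_P1164136) ranged from 3.36 to 3.67 in control, with a median of 3.54. In stress it ranged from 3.69 to 3.92 (median 3.73), and with exercise from 3.57 to 4.06 (median 3.90). On this probe every stress rat lay above every control rat, and exercise array 1, the lowest exercised rat on both probes, lay within the control range.

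With stress and exercise, Dbp was higher than in control by 0.31 on probe 1 (SE 0.06, 95% interval 0.19 to 0.44, adjusted p = 0.00135) and by 0.32 on probe 2 (SE 0.07, interval 0.17 to 0.48, adjusted p = 0.00355). Both correspond to a level about 1.24 and 1.25 times that of control, with 6 of 6 exercised rats above the control mean. Between stress and control the differences were 0.21 (interval 0.08 to 0.33) and 0.24 (interval 0.08 to 0.39), with 6 of 6 stress rats above the control mean on each probe. Neither passed over all probes, with adjusted p of 0.273 and 0.278. Between exercise and stress the differences were 0.11 (interval -0.02 to 0.23) and 0.09 (interval -0.06 to 0.24), and neither passed.

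Tef, a PAR-bZIP factor related to Dbp, had a single probe (A_42_P788480). It ranged from 3.37 to 3.61 (median 3.49) in control, from 3.52 to 3.71 (median 3.58) in stress and from 3.60 to 3.70 (median 3.62) with exercise. Of the 6 exercised rats, 4 lay above every control, and 1 control rat at 3.61 lay inside the exercise range. The difference from control was 0.16 with exercise (SE 0.04, interval 0.07 to 0.25, adjusted p = 0.0130, 6 of 6 rats above the control mean) and 0.12 with stress alone (SE 0.04, interval 0.03 to 0.21, adjusted p = 0.337). Exercise and stress differed by 0.04 (interval -0.06 to 0.13), which did not pass. Without any scaling of the arrays, the exercise difference from control in Tef was 0.10 and did not pass (adjusted p = 0.397).

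Nr1d1, the heme-binding repressor of the second loop, had the largest difference of the 12 probes in the comparisons with exercise. Its probe (A_44_P175041) ranged from -2.29 to -2.14 (median -2.21) in control, from -2.49 to -1.79 (median -2.17) in stress and from -1.86 to -1.64 (median -1.72) with exercise. All exercised rats lay above all controls, and the stress rats ran from below the control range to the lower part of the exercise range. Stress arrays 1 to 4 stood at -2.25, -2.49, -2.08 and -2.37, near or below the controls, whereas stress arrays 5 and 6 of slide 4 stood at -1.79 and -1.97, next to the exercised rats. The exercise group was higher by 0.47 than control (SE 0.09, 1.39-fold, adjusted p = 0.00170) and by 0.42 than stress (SE 0.09, 1.34-fold, adjusted p = 0.0384). Stress and control differed by 0.05 (interval -0.15 to 0.24, adjusted p = 0.867). The call for exercise against stress was kept without control array 2 or 5 or stress array 5 or 6, and was lost without any 1 of the other 14 arrays (adjusted p of 0.05 to 0.102), while the call against control was kept in all 18 such fits. The annotated gene overlaps the end of Thra on the opposite strand, and the position of the probe within Nr1d1 is not among the sources used here.

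Nr1d2, the related repressor, had 2 probes, and neither passed in any comparison. Probe 1 (A_43_P15057) had medians of 3.03 in control, 3.06 in stress and 3.06 with exercise, and its 3 differences lay between -0.02 and 0.03. The intervals of these differences reached no further than -0.14 and 0.155. Probe 2 (A_44_P395572) had medians of -3.32, -3.11 and -3.02 in the same order, with wider spread, and its largest difference was 0.18 between exercise and control (interval -0.10 to 0.46, adjusted p = 0.353). The ranges of the 3 groups overlapped on both probes.

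Among the period genes, which encode the inhibitors of BMAL1 and CLOCK, no probe passed in any of the 3 comparisons in the fit with group as the only term. For exercise against control, Per2 and Per3 passed with normexp background correction, and Per1 probe 1 and Per3 with scan day as a block. Per1 is also induced directly by glucocorticoid and cAMP signals. Its probe 1 (A_43_P14090) ranged from 1.29 to 1.73 (median 1.56) in control, from 1.67 to 1.89 (median 1.79) in stress and from 1.53 to 1.92 (median 1.69) with exercise. The stress range met the control range only through control array 6, and 6 of 6 stress rats exceeded the control mean. The difference of stress from control was 0.26 (SE 0.07, interval 0.10 to 0.41, adjusted p = 0.271), and that of exercise from control was 0.18 (SE 0.07, interval 0.02 to 0.33, adjusted p = 0.0808). Probe 2 (A_44_P114034), matched to another transcript record of the gene, had medians of -3.0, -3.14 and -3.06 in control, stress and exercise, and its stress difference was -0.14 (interval -0.36 to 0.08, adjusted p = 0.597). The 2 probes of Per1 thus gave stress differences of opposite sign, neither of which passed.

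Per2 (A_42_P708593) had medians of -1.01 in control, -1.01 in stress and -1.11 with exercise, with ranges of -1.11 to -0.95, -1.32 to -0.90 and -1.20 to -1.04. Its differences lay between -0.10 and -0.03, with intervals that reached from -0.23 to 0.10, and none passed. Per3 (A_64_P119407) ranged from -0.83 to -0.47 (median -0.55) in control, from -1.01 to -0.36 (median -0.58) in stress and from -0.92 to -0.64 (median -0.85) with exercise. Stress arrays 5 and 6 stood at -0.93 and -1.01, lower than the other 4 stress arrays at -0.60 to -0.36 and beside the exercised rats. The exercise difference from control was -0.22 (SE 0.10, interval -0.44 to -0.01, adjusted p = 0.117), with 6 of 6 exercised rats below the control mean.

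Of the cryptochromes, the repressors that partner the period proteins, Cry1 (A_44_P374708) was lower in rats with stress and exercise than in control rats. It ranged from 0.62 to 0.81 (median 0.67) in control, from 0.44 to 0.73 (median 0.63) in stress and from 0.43 to 0.62 (median 0.54) with exercise. The exercised rats all lay below the control mean, and the ranges overlapped only at the lowest control. The difference from control was -0.16 (SE 0.05, interval -0.27 to -0.05, adjusted p = 0.0267), while that of stress was -0.09 (interval -0.19 to 0.02, adjusted p = 0.511). Exercise and stress differed by -0.08 (interval -0.19 to 0.03, adjusted p = 0.369), which did not pass. Leaving out control array 2 or 3 or exercise array 3, 5 or 6 brought the adjusted p of the exercise difference to between 0.0519 and 0.0643. Cry2 (A_44_P1085158) had medians of 3.98, 3.92 and 3.93, with overlapping ranges. Its largest difference was -0.10 between stress and control (interval -0.21 to 0.02), and none passed.

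**Figure D2:**
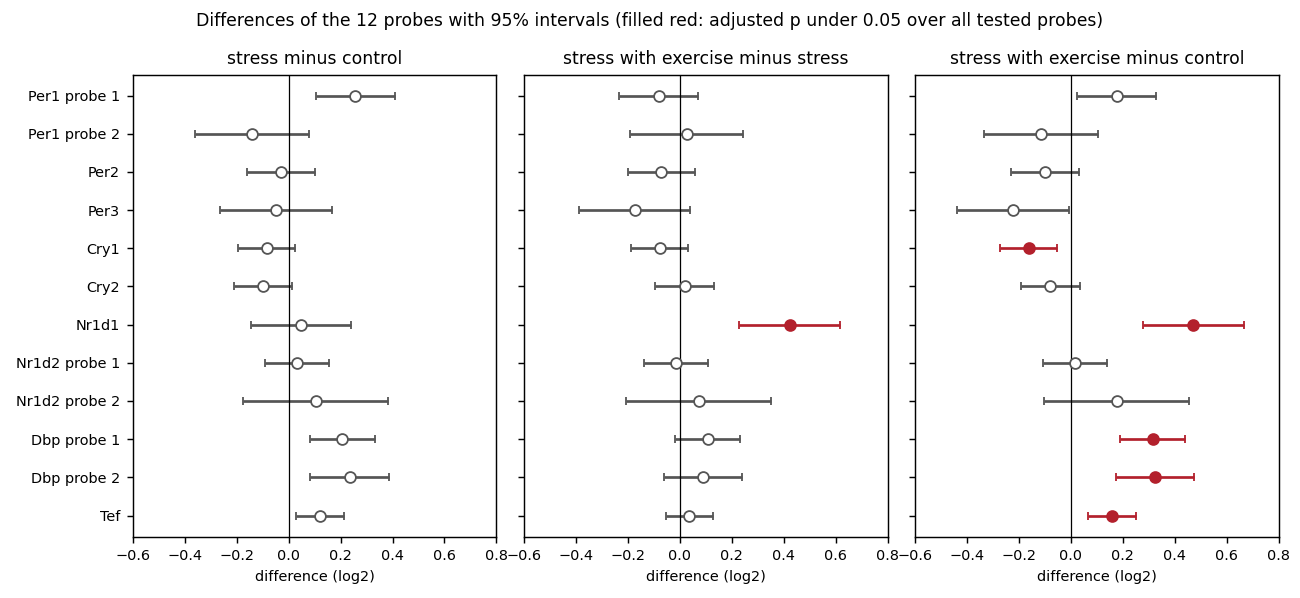
Difference of each probe (x axis, log2) with its 95% interval in the 3 comparisons, drawn filled in red where the adjusted p was under 0.05. No probe was called for stress against control, Nr1d1 alone for exercise against stress, and Nr1d1, both Dbp probes, Tef and Cry1 for exercise against control.

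For stress against control, 0 of the 12 probes were called by limma, as was 0% of all 31299 probes. At an unadjusted p under 0.05 there were 4 of 12 (Per1 probe 1, both Dbp probes and Tef), against 12% of all probes. The groups did not overlap for 1 of 12, Dbp probe 2, against 0.802% of all probes. For exercise against stress, 1 of the 12 was called, against 3.74% of all probes, and it was higher, as were 1.19% of all. For exercise against control, 5 of the 12 were called (4 higher and 1 lower), or 4 of 9 genes, against 27.2% of all probes (13.4% higher and 13.8% lower). The groups did not overlap for 2 of the 12 there, Nr1d1 and Dbp probe 1, against 18% of all. The median difference of the 12 was 0.04 for stress against control, 0.02 for exercise against stress and 0.09 for exercise against control, and that of all probes was -0.005, 0.02 and 0.02. The comparisons share rats: the same controls stand in both comparisons with control, and the same stress rats in both with stress.

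The stress group offered the one place to set the 2 slide sets side by side within a treatment. Between its 2 arrays on slide 4 and its 4 arrays on slide 3, 2 of the 12 probes were called in a limma fit over all arrays, against 17.3% of all probes. Nr1d1 was 0.42 higher on slide 4 (SE 0.09, adjusted p = 0.00444) and Per3 differed by -0.485 (SE 0.10, adjusted p = 0.00247). The slide difference in Nr1d1 was as large as the difference between exercise and stress, and that in Per3 was larger than any group difference of that gene. Both Dbp probes and Tef had slide differences of 0.11, -0.095 and 0.007, and none passed. The mean of the pituitary markers, 3 tested of 6, was 0.17 in the stress arrays of slide 3 and -3.68 in those of slide 4. Most of this gap came from Cga, at 4.29 to 5.48 on slide 3 against -6.52 and -5.50 on slide 4, while Lhb was at -1.18 to -0.792 against -1.46 and -1.38, and Pou1f1 ranged from -3.84 to -3.02 on slide 3 and stood at -3.03 and -4.17 on slide 4. In the controls that mean ran from -3.33 to 0.07 and with exercise from -3.57 to -0.44, and its part in the Nr1d1 and Per3 values was not tested.

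With the slide set as a covariate, 0 of the 12 probes were called in each comparison, against 0.0128% of all probes for exercise against control. In that fit exercise and control are linked only through the stress arrays, 2 on slide 4 and 4 on slide 3, so the adjusted differences rest on those few arrays. The exercise difference from control in Nr1d1 went from 0.47 to 0.05 (adjusted p = 0.942), and that of Per3 changed sign, to 0.26 (adjusted p = 0.518). The calls of Dbp and Tef were also lost, with differences of 0.21 on Dbp probe 1 (SE 0.10, adjusted p = 0.575), 0.42 on Dbp probe 2 (SE 0.13, adjusted p = 0.362) and 0.15 in Tef (SE 0.08, adjusted p = 0.594). With slide as a random block, 0 of the 12 probes were called as well, against 5.28% of all probes for exercise against control. Within slides 4 and 5 alone, Nr1d1 differed by 0.14 between exercise and stress (adjusted p = 0.841). Within slides 1 to 3 alone, stress differed from control by 0.23 in Per1 probe 1, 0.17 and 0.27 in the Dbp probes and 0.12 in Tef, and none passed. Control arrays shared no slide with stress or exercise arrays, so group and single slide cannot be told apart in the comparisons with control.

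**Figure D3:**
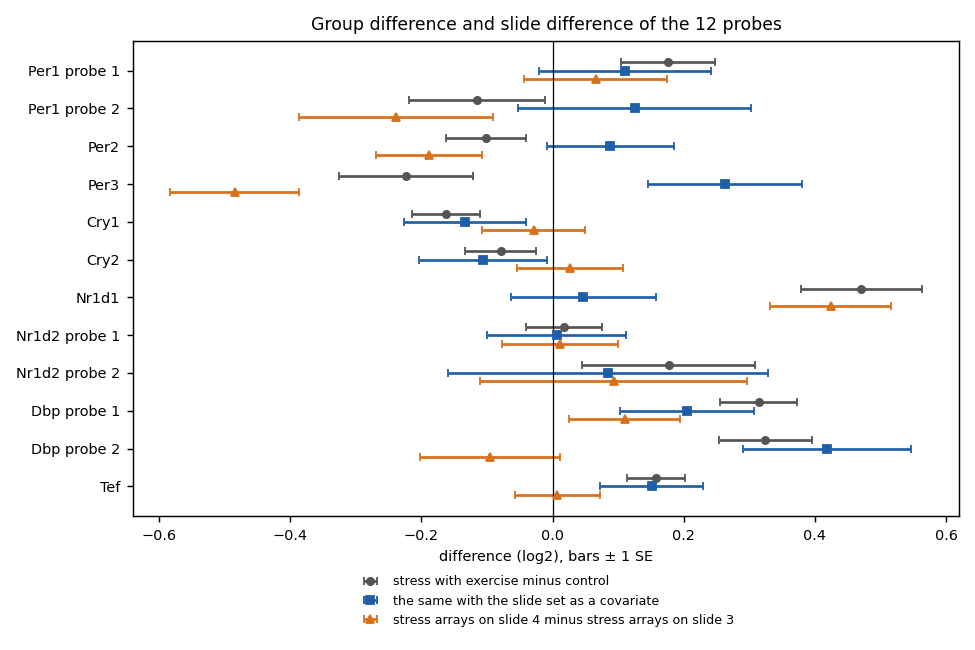
Difference of each probe (x axis, log2, bars of 1 SE) between exercise and control in the plain fit and in that adjusted for slide set, and between the stress arrays of slide 4 and slide 3. For Nr1d1 and Per3 the slide difference within stress was 0.424 and -0.485 (SE 0.092 and 0.098), of the same sign as the exercise difference in the plain fit. For Tef the slide difference was 0.007 (SE 0.065).

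Arrays were scanned on 2 days, and values within a day were computed for each comparison. On day 1, stress was represented by the 2 arrays of slide 4 and control by the 4 arrays of slide 2. Group and slide set cannot be told apart in that comparison. Nr1d1 was 0.34 higher in stress than in control (adjusted p = 0.0341), and 12.5% of all probes were called. On day 2, stress was represented by the slide 3 arrays, and Nr1d1 differed by -0.10. For Per3 the stress difference from control was -0.325 on day 1 (adjusted p = 0.0699) and 0.017 on day 2 (adjusted p = 0.954). The exercise difference from control in Dbp probe 1 was 0.27 on day 1 (adjusted p = 0.101) and 0.31 on day 2 (adjusted p = 0.0212). Of all probes, 19% and 18.8% were called in those fits. Day 1 set 2 exercise arrays of slide 4 against 4 controls of slide 2, and day 2 set 4 exercise arrays of slide 5 against 2 controls of slide 1. On neither day can group and slide set be told apart between exercise and control. An alternative added after the values were seen left out both stress arrays of slide 4. Nr1d1 was then 0.56 higher with exercise than in stress, and Per3 was lower, at -0.34 (adjusted p = 0.00394). In that fit 26.2% of all probes were called, against 3.74% with all arrays. Stress then lay on slide 3 alone and shared no slide set with exercise. Group and slide set cannot be told apart there either.

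The 2 probes of Dbp followed each other from rat to rat. Within slides 1 to 3 (10 arrays) their Pearson correlation was 0.93 and Spearman's rho 0.85, with permutation p adjusted over the 3 probe pairs of 0.00051 and 0.00822. Without the 2 arrays farthest from the median it was 0.82. Within slides 4 and 5 (8 arrays) it was 0.85, with a rho of 0.74 and exact permutation p adjusted in the same way of 0.0133 and 0.125, and it fell to 0.38 without the 2 farthest arrays and so rested on them. The probes of Nr1d2 correlated at 0.46 and 0.88 in the 2 slide sets, the second resting in part on exercise array 1 (0.65 without the 2 farthest), and those of Per1 at 0.00 and 0.50. Of these values of Nr1d2 and Per1, only that of Nr1d2 in slides 4 and 5 passed (adjusted p = 0.0133, with 0.125 for rho).

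**Figure D4:**
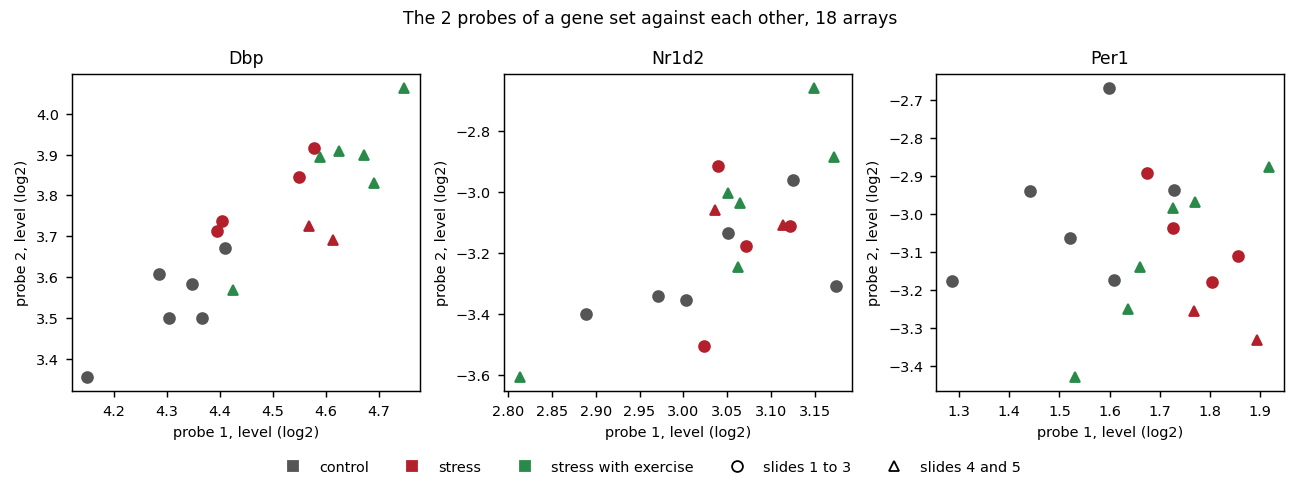
Level of probe 2 (y axis) against probe 1 (x axis) of Dbp, Nr1d2 and Per1 on 18 arrays, both in log2 relative to the array's 75th percentile, coloured by group and shaped by slide set. The Dbp points rise together in slides 1 to 3 (r = 0.93), while the value of 0.85 in slides 4 and 5 falls to 0.38 without the 2 farthest arrays, and the Per1 values are 0.00 and 0.50.

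Correlations between different clock genes were computed for 45 pairs of the 9 member genes and Bmal1 in each slide set, with permutation tests (exact for 8 arrays). After adjustment over the 45 pairs, 0 passed in slides 1 to 3 and 0 in slides 4 and 5, with lowest adjusted p of 0.304 and 0.147. Pearson values ran from -0.62 to 0.79 in the first set and from -0.89 to 0.86 in the second. In slides 1 to 3 the extremes were Per1 with Dbp at 0.79 and Cry1 with Tef at -0.62, and these pairs stood at -0.04 and 0.34 in slides 4 and 5. In slides 4 and 5 the extremes were Per2 with Bmal1 at -0.89 and Per1 with Bmal1 at 0.86. Those pairs stood at -0.27 and -0.49 in slides 1 to 3. Bmal1 encodes the activator that the REV-ERB proteins repress.

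Genes most like 3 of the members were ranked by the lower of the 2 within-set Pearson values over 12979 named genes, as a description. For Per1 probe 1 they were the immediate early gene Nr4a1 (0.86 and 0.89 in the 2 slide sets), Cables1 (0.84 and 0.85) and Plekhf1 (0.82 and 0.94). For Nr1d1 they were the kinesin gene Kifc3 (0.87 and 0.86), Mbip (0.77 and 0.91) and the transcription factor gene Runx1 (0.80 and 0.70). For Dbp probe 1 they were Amotl2 (0.75 and 0.78), Gpr135 (0.76 and 0.73) and Lhfpl4 (0.73 and 0.81). No other clock member stood among them, and Nr1d2 came nearest, at rank 30 for Dbp (0.63 and 0.76). The arrays of a set share slides and groups, which such values include.

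Of 17 further genes of the clock, 14 were tested. No gene of the 14 passed for stress against control or for exercise against stress, beside 0% and 3.74% of all probes. For exercise against control 4 of 14 passed, all higher, which is 28.6% against 27.2% of all probes. Among them were Bhlhe40 (0.16, adjusted p = 0.0256), an E-box repressor, Csnk1d (0.12, adjusted p = 0.0474), the kinase gene whose product acts on period proteins, and Gsk3b (0.18, adjusted p = 0.00217), a further clock kinase gene. Probes disagreed for some: a second Csnk1d probe was at -0.045 and did not pass, other Gsk3b probes were at 0.115 (passed), -0.09 and -0.14, and Btrc, at 0.04 on its brightest probe, was at 0.185 on another (adjusted p = 0.00723). The activator genes Bmal1 (0.03, 0.06 and 0.09 in the 3 comparisons), Clock (0.03, 0.18 and 0.21) and Npas2 (-0.29, 0.27 and -0.02) did not pass in any. The median over the 14 was 0.15 for exercise against control, beside 0.02 over all probes.

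Among 6 genes that the clock or PAR-bZIP factors drive in other rodent tissues, none passed for stress against control or exercise against stress. Of all probes, 0% and 3.74% passed in those comparisons. For exercise against control 3 were higher: Por, the reductase that feeds electrons to cytochromes P450 (0.23, adjusted p = 0.00355), Alas1, the first enzyme of heme synthesis (0.21, adjusted p = 0.00855), and Nampt, an enzyme of NAD synthesis (0.16, adjusted p = 0.0490). The deubiquitinase gene Usp2 was lower, at -0.31 (adjusted p = 0.0163), and Wee1 (0.10) and Pdxk (0.07) did not pass. A second probe of Nampt was at -0.16 and one of Usp2 at 0.14, and neither passed. The 4 called of 6 stand beside 27.2% of all probes. Within the stress group Usp2 was at 1.15 to 1.27 on slide 3 and at 0.763 and 0.829 on slide 4, and Por at 1.09 to 1.14 and at 1.26 and 1.41, so that the slide 4 stress rats stood near the exercised rats for both.

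Genes for signals that reach Per1 were set beside it. Of 8 glucocorticoid-responsive genes none passed for stress against control, where 0% of all probes passed. Fkbp5 was at 0.04, Sgk1 at 0.04 and Tsc22d3 at 0.12 there, while Klf9 was at -0.07 and Cdkn1a at -0.08. For exercise against control 1 of 8 was called, Errfi1 (0.18, adjusted p = 0.0300), against 27.2% of all probes. A second Errfi1 probe was at 0.085 there and did not pass (adjusted p = 0.529). Of 9 immediate early genes 8 were tested and none passed in any of the 3 comparisons. Of all probes, 0% passed for stress against control, 3.74% for exercise against stress and 27.2% for exercise against control. For stress against control Fos was at 0.31, Nr4a1 at 0.28 and Junb at 0.18, with adjusted p of 0.531, 0.398 and 0.709. Fosb was at 0.325, Arc at 0.10 and Ier2 at 0.09, while Egr1 and Dusp1 were lower, at -0.11 and -0.145.

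The dissected tissue was also checked for markers of neighbouring regions and cell types. Of 8 markers of the suprachiasmatic nucleus 6 were tested and their mean ranged from -1.02 to -0.70 in control, from -1.01 to -0.67 in stress and from -0.82 to -0.55 with exercise. Gpr176 alone passed, at 0.24 for exercise against control (adjusted p = 0.00374), which is 16.7% of the 6 beside 27.2% of all probes. Vip, the peptide gene of the ventral part of that nucleus, was at -0.28, 0.35 and 0.07 (SE 0.33) in the 3 comparisons. Striatal markers, 7 of 7 tested, moved with the groups in the same order as Dbp and Tef. So did the means of oligodendrocyte markers (5.16, 5.23 and 5.35) and of the 6 clock-driven genes (0.72, 0.78 and 0.80). The striatal mean ranged from -0.06 to 0.12 in control, from 0.03 to 0.58 in stress and from 0.18 to 0.91 with exercise. Of the striatal markers, 5 of 7 were higher with exercise than in control. Oligodendrocyte markers, 6 of 6 tested, ranged from 5.05 to 5.22, from 5.13 to 5.33 and from 5.30 to 5.45, and 3 of 6 were higher. Their mean in stress was 5.18 on slide 3 and 5.31 on slide 4, the latter next to 5.35 with exercise. In the same comparison 2 of 5 astrocyte markers were called (Aldh1l1 at 0.18 and Gja1 at -0.17) and 2 of 5 microglial markers (Tmem119 at 0.29 and Cx3cr1 at -0.58). Their counts and those of the striatal and oligodendrocyte markers stand beside 27.2% of all probes. Thalamic markers, 5 of 8 tested, had a mean of 0.93 in control, 0.32 in stress and 0.79 with exercise. Over single rats it ran from -0.21 to 1.72, -0.58 to 0.94 and -0.13 to 1.71. No thalamic marker passed in any comparison, beside 0% of all probes for stress against control, 3.74% for exercise against stress and 27.2% for exercise against control. With the thalamic and striatal means as covariates, the exercise difference from control was 0.41 and 0.43 in the Dbp probes and 0.49 in Nr1d1. These 3 probes of the 12 passed, against 4.8% of all probes, while Cry1 and Tef lost their calls. Nr1d1 lost its call for exercise against stress in that fit, where 0.00319% of all probes were called. The part of oligodendrocyte, astrocyte or microglial RNA in these values was not tested.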

How the data were processed

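Hypothalamic RNA of 18 rats was hybridised to 1-colour arrays, 1 per rat (62976 spots, 58717 not controls, 45598 probes). Per the labels' protocols, RNA integrity numbers were above 7. The intensity used is the processed signal that Feature Extraction had corrected for background, per the file headers, which name version 12.1.0.3, while the submitters' processing notes name 9.1. The authors' deposited matrix held the same intensity times 1 constant per array (1.02 to 1.24), so it is linear and not centred by gene. The sources used here do not say how it was chosen.

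The log2 of the deposited intensity was taken and each array's 75th percentile over probes subtracted. Control and outlier spots were left out and spots of a probe averaged. There were no saturated spots (0). Tested probes were those well above background on 5 of 6 arrays of at least 1 group (31299 probes). Names came from transcript accessions in a RefSeq table of assembly GRCr8: 21220 probes matched 1 symbol, 0 several and 24378 none. The arrays were designed on another build, so no probe positions are given. Genes outside the member list are given by their brightest tested probe.

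Groups were compared with limma 3.58.1 in R 4.3.3 (lmFit and eBayes), with group as the only term, after a test on simulated data. P-values are two-sided and adjusted by Benjamini-Hochberg, and intervals are 95% limits of that fit. Correlations within a slide set used 100000 permutations for 10 arrays and all 40320 for 8 arrays. Leaving 1 array out assumes, in the slide comparison, that a lone array varies like the others. The normexp alternative used the median signal and median background, with an offset of 50. The number of arrays limits the precision. The members, gene lists and tests were chosen with earlier results of these data known. The genes named are the members, the lists given in the text and, for Per1, Nr1d1 and Dbp, the 3 genes most like each; some listed genes are not reported here. A common replicate number did not pair the rats: correlations of same-numbered deviations ran from -0.249 to 0.184.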

Additional observations from a re-analysis of the deposited data

Results flagged for a closer look

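On Nr1d2 probe 1, exercise array 1 had a level of 2.81, while the other 5 exercised rats lay between 3.05 and 3.17. Its gap to the nearest of them was 0.663 of the range of that group. The same rat was lowest of its group on Nr1d2 probe 2 (-3.61) and on both Dbp probes (4.43 and 3.57). Chance gives such a gap in about 1 of 20 groups, and 36 sets of 6 values were looked at.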

How the results depend on the processing

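Group differences of the 12 clock probes were refitted under the alternatives for scaling, background, filters, blocks, covariates and left-out arrays, and the cause of each change below was not tested unless stated. The number called for stress against control was 0 in every alternative except the arrays of scan day 1, where it was 1 (Nr1d1). There 12.5% of all probes were called. For exercise against stress the 1 call became 0 without scaling, without a filter on dim probes (where more probes are tested), with slide as a random block, with the slide set, the slide set and scan day, or the thalamic and striatal means as covariates, within slides 4 and 5, within scan day 1 and with only the 2 groups compared. It became 2 within scan day 2 and without both stress arrays of slide 4, against 24.8% and 26.2% of all probes. In both of those fits stress and exercise shared no slide set, so group and slide set cannot be told apart. With 1 array left out the number of member calls ran from 0 to 1, and the count over all probes from 1 to 4630. For exercise against control the 5 calls became 0 with slide as a random block or with the slide set, alone or with scan day, as covariates. They became 1 within scan day 1 and 3 with the thalamic and striatal means, against 19% and 4.8% of all probes. The 2 probes called between the stress arrays of slides 4 and 3 became 1 without scaling. Without scaling, 2.4% of calls over all probes for exercise against stress were higher, beside 31.7% with it, and 14% beside 49.2% for exercise against control. The 5 calls became 7 with normexp and with scan day as a block, against 25.4% and 33.1% of all probes. Of the period probes, none of them among the 5, Per2 passed with normexp (-0.178) and Per1 probe 1 with scan day as a block (0.202) and without control array 6 (adjusted p = 0.0377) or exercise array 5. Per3 passed with normexp (-0.209), with scan day as a block (-0.300), without both stress arrays of slide 4 (-0.223) and with only the 2 groups compared (-0.223). The counts of correlated gene pairs stayed at 0 with group means removed, where the 2 Per1 probes in slides 4 and 5 went from 0.50 to 0.86 (permutation, adjusted p = 0.0124). With the replicate block, which rests on numbers that did not pair the rats, calls for exercise against stress went from 1 to 0 (Nr1d1, adjusted p = 0.0659), and it changed no other call among the members.

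Signs changed only for differences that had not passed. After adjustment for the slide set, stress minus control became 0.033 for Per2, 0.113 for Per3 and -0.093 for Nr1d1, as it did within slides 1 to 3 and without both stress arrays of slide 4. These settings give the same estimate by construction, that of the slide 3 stress arrays minus the controls. With the same adjustment, exercise minus stress became 0.055 for Per2 and 0.150 for Per3, by construction the same estimates as within slides 4 and 5. Exercise minus control became 0.125 for Per1 probe 2, 0.088 for Per2 and 0.263 for Per3. With scan day added, stress minus control was 0.041 for Per3, -0.095 for Nr1d1, -0.035 and -0.153 for the Nr1d2 probes. Exercise minus stress was then 0.017 for Per2, 0.079 for Per3, -0.215 for Nr1d2 probe 2 and -0.018 for Dbp probe 1. Exercise minus control was 0.184 for Per1 probe 2, 0.013 for Per2, 0.120 for Per3, 0.050 for Cry2, and -0.121 and -0.368 for the Nr1d2 probes. Within scan day 1, exercise minus stress was 0.012 for Per1 probe 1, 0.103 for Per3, 0.019 for Cry1, -0.342 for Nr1d2 probe 2, -0.033 and -0.009 for the Dbp probes, and exercise minus control was 0.134 for Per1 probe 2, -0.092 and -0.127 for the Nr1d2 probes. Within scan day 2, stress minus control was 0.033 for Per2, 0.017 for Per3, -0.103 for Nr1d1 and -0.026 for Nr1d2 probe 2, and exercise minus stress was -0.147 for Per1 probe 2, -0.009 for Cry2 and 0.045 for Nr1d2 probe 1. For Nr1d2 probe 1, exercise minus control was -0.081 with normexp, -0.005 with quantile normalization, -0.038 without scaling, -0.007 from the matrix, -0.012 with slide as a random block, -0.003 with scan day as a block and -0.002 with the percentile over spots. For Per1 probe 2, exercise minus stress was -0.025 with normexp, -0.034 without scaling, -0.070 with the thalamic and striatal means and -0.054 without both stress arrays of slide 4. Without scaling it was -0.040 for Cry2 and -0.022 for Tef, with the thalamic and striatal means -0.019 for Cry2 and 0.020 for Nr1d2 probe 1, and with slide as a random block -0.110 for Nr1d2 probe 2. With 1 array left out, stress minus control ran from -0.058 to 0.027 for Per2, from -0.106 to 0.024 for Per3 and from -0.026 to 0.116 for Nr1d1. Exercise minus stress ran from -0.020 to 0.090 for Per1 probe 2, from -0.008 to 0.053 for Cry2, from -0.040 to 0.032 for Nr1d2 probe 1 and from -0.010 to 0.179 for Nr1d2 probe 2, and exercise minus control from -0.013 to 0.064 for Nr1d2 probe 1.

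Limits: the precision rests on 6 arrays per group, all member probes were well above background on all 18 arrays, and a single time of collection per rat gives no phase or amplitude of a rhythm.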
